A study of Mus musculus with 99 samples.

Results

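The SUZ12 peak lists of mouse embryonic stem cells (mESCs) that retain MTF2 were analysed, 4 ChIP-seq libraries with 25763 peaks among 69 ChIP-seq libraries with 407939 peaks in a series of 99 samples. The lists were chosen by their labels, as the SUZ12 libraries of lines without the MTF2 knockout: Parental −OHT (9321 peaks), Parental +OHT (5811), RING1B WT +OHT (7156) and RING1B I53S +OHT (3475). All 4 come from ROSA26::creERT2 cells that lack RING1A (RING1A-/-) and carry floxed RING1B (RING1B fl/fl), so the untreated control also has no RING1A. The +OHT libraries were made after 72 h of 0.5 µM 4-hydroxytamoxifen by the labels, which activates the Cre recombinase and deletes RING1B, and the −OHT library after ethanol. RING1B WT and RING1B I53S are selected clones with a FLAG-HA RING1B transgene under a pCAG promoter, the second with a substitution in the RING domain that abolishes ubiquitin ligase activity. SUZ12 was profiled in both of these lines with OHT alone, so a difference between clones and the effect of OHT cannot be told apart in them. Each condition has 1 SUZ12 library. No p-value is therefore given between libraries, and the 95% Wilson intervals cover counting over peaks only.

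SUZ12 is a core subunit of Polycomb repressive complex PRC2, which also holds EED and the methyltransferase EZH1 or EZH2 and places H3K27me3 at silent CpG-rich promoters. PRC2 occurs in the form PRC2.1, with MTF2 or another Polycomb-like protein and EPOP, and in the form PRC2.2, with JARID2 and AEBP2. PRC1 is built around RING1A or RING1B, which place ubiquitin on histone H2A (H2AK119ub1). In mESCs both complexes lie on the promoters of developmental regulators such as the Hox, Gata and Pax genes. The question behind these libraries is what becomes of PRC2 on chromatin when RING1B is absent, or present without its ligase activity.

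Stretches of 4 peaks follow, from a peak in all lists, a narrowed peak, a lost peak and a peak absent from Parental −OHT. Each is the 200-base stretch of the peak that is richest in CpG outside annotated exons, from GRCm38 (mm10), on the plus strand and 5′ to 3′, with every CpG in capitals. The Tbx1 stretch (chr16:18586970-18587169, in an intron) lies in a peak of all 4 lists. The Id2 stretch (chr12:25098769-25098968) lies 1729 bp upstream of the gene, under a peak that narrowed. The Ncs1 stretch (chr2:31245608-31245807) lies 115 bp upstream, in the highest-scoring peak left in neither Parental +OHT nor RING1B I53S +OHT, and was chosen after its values were seen. The Zbtb7a stretch (chr10:81136754-81136953, in an intron) comes from a peak of Parental +OHT that overlaps none of Parental −OHT.
Tbx1: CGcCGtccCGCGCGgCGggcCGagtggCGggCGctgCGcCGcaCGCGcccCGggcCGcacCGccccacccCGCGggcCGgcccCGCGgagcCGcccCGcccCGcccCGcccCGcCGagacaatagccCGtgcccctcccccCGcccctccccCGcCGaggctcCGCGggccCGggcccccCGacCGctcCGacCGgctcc
Id2: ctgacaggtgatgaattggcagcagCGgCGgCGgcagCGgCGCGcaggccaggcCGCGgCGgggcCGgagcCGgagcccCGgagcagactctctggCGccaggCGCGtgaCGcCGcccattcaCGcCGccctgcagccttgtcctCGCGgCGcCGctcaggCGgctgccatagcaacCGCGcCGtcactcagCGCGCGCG
Ncs1: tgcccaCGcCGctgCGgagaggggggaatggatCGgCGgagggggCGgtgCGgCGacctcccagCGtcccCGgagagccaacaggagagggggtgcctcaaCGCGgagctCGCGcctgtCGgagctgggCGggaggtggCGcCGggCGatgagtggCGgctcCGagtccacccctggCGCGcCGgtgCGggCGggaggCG
Zbtb7a: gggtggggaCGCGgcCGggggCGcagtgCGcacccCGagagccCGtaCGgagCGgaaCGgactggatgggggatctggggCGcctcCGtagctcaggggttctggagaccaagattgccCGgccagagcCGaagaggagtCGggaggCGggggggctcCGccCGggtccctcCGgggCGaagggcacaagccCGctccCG
They hold 38, 31, 27 and 22 CpG. Of 25594 windows of 200 bases taken at 1 per 100 kb of the genome, with a median of 1 CpG, 0.0117%, 0.0234%, 0.0508% and 0.125% hold as many or more. Each stretch was picked as the richest of its peak and the genome windows were not picked, so the comparison cannot show that the peaks are CpG-dense. The central 500 bp of the lost Ncs1 peak hold 5 CpG. The median there is 23 for peaks left in neither list and 3 for genome windows.

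Parental −OHT peaks were the most numerous, the widest and the highest in score, and RING1B I53S +OHT peaks the fewest, the narrowest and the lowest. The 9321 peaks of Parental −OHT covered 18.1 Mb, against 8.05 Mb in Parental +OHT, 13.02 Mb in RING1B WT +OHT and 4.22 Mb in RING1B I53S +OHT. In number the +OHT lists held 62.3%, 76.8% and 37.3% of the Parental −OHT list, and in covered length 44.4%, 71.8% and 23.3%. The median width was 1413 bp in Parental −OHT, 1074 bp in Parental +OHT, 1363 bp in RING1B WT +OHT and 947 bp in RING1B I53S +OHT. The score of a peak is the −log10 of its p-value from the peak caller, and its median was 39.96, 22.1, 33.7 and 17.6 in the same order. Peaks with a score of at least 100 numbered 2928 in Parental −OHT, 268 in Parental +OHT, 1607 in RING1B WT +OHT and 37 in RING1B I53S +OHT. Covered length thus differed more between lists than peak number did. With only peaks of a score of at least 20, the 4 lists held 6453, 3216, 4730 and 1460 peaks, a wider gap in the same order. The numbers given to peaks run to 11662, 7533, 9451 and 4806, so the lists hold fewer peaks than were numbered, and depth per library was not analysed here.

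**Figure D1:**
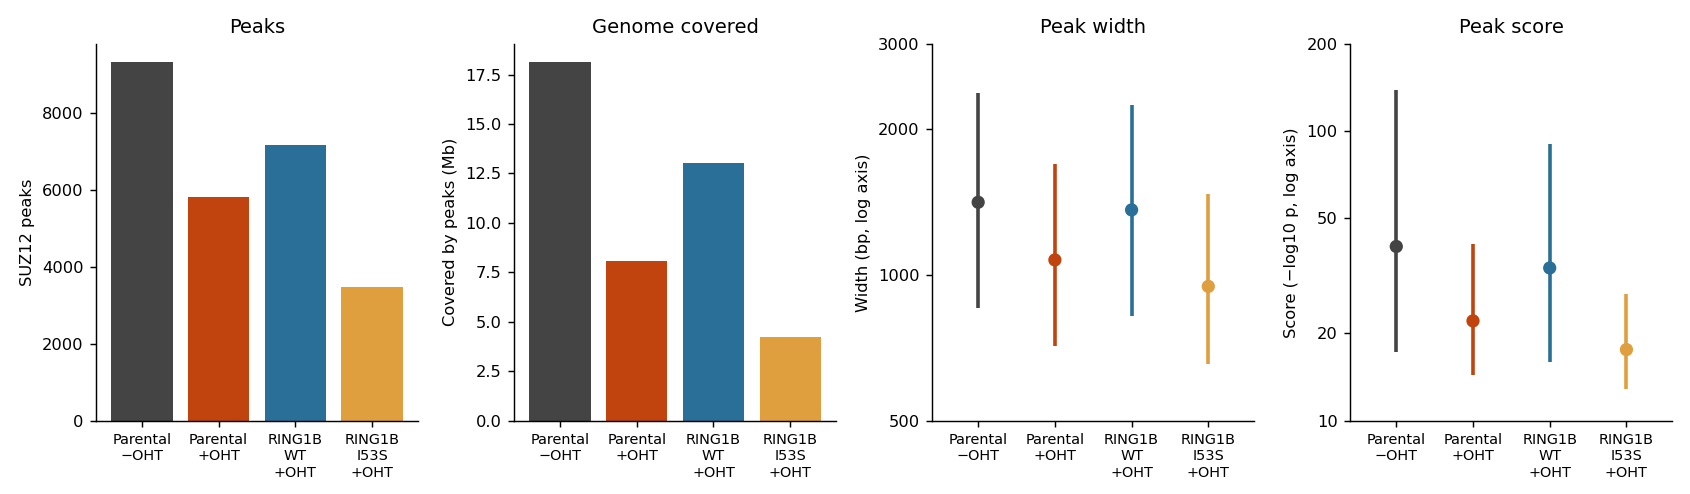
SUZ12 peaks in the 4 lists: number of peaks, length covered in Mb, width in bp and score as −log10 p, the last 2 on log axes. Bars are single libraries, points are medians and lines run from the first to the third quartile. Parental −OHT lies highest and RING1B I53S +OHT lowest in each panel.

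Nearly all SUZ12 peaks found with OHT lay on peaks already present without it. Of Parental +OHT peaks 92.5% (95% interval 91.8 to 93.1) overlapped a Parental −OHT peak, of RING1B WT +OHT peaks 95.6% (95.1 to 96.0) and of RING1B I53S +OHT peaks 94.5% (93.7 to 95.2). RING1B I53S +OHT peaks also lay on Parental +OHT peaks at 95.3%. In the other direction, 53.9% (52.9 to 54.9) of Parental −OHT peaks were overlapped by a peak of Parental +OHT, 70.5% (69.6 to 71.4) by one of RING1B WT +OHT and 32.2% (31.2 to 33.1) by one of RING1B I53S +OHT. The 3 intervals do not overlap. The size of these shares depends on list length. With the 3475 highest-scoring peaks of each list they were 73.8%, 89.0% and 63.7%, and with at least 50% of the peak covered 37.6%, 64.2% and 14.2%, in the same order each time. Merged over the 4 lists, the peaks made 10000 regions, of which 2862 were in every list, 2421 in Parental −OHT alone, 1847 in all but RING1B I53S +OHT and 1787 in Parental −OHT and RING1B WT +OHT alone.

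Whether a Parental −OHT peak was left followed its score. In the lowest quartile of score, 15.9% of peaks were overlapped in Parental +OHT, 20.8% in RING1B WT +OHT and 6.61% in RING1B I53S +OHT. In the highest quartile, with scores above 138, these shares were 97.2%, 100% and 76.7%. Between them, in the third quartile, 67.7% were left in Parental +OHT, 98.2% in RING1B WT +OHT and 30.8% in RING1B I53S +OHT. RING1B WT +OHT thus lacked mainly peaks of the 2 lower quartiles, whereas the other 2 lists also lacked peaks of the upper ones. CpG content ordered the peaks in the same direction in each +OHT list, RING1B WT included. From the lowest to the highest quartile of CpG in the 500 bp at the centre of the peak, the share left ran from 30.5% to 77.2% in Parental +OHT and from 18.1% to 52.3% in RING1B I53S +OHT, and from 53.9% to 79.9% in RING1B WT +OHT.

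**Figure D2:**
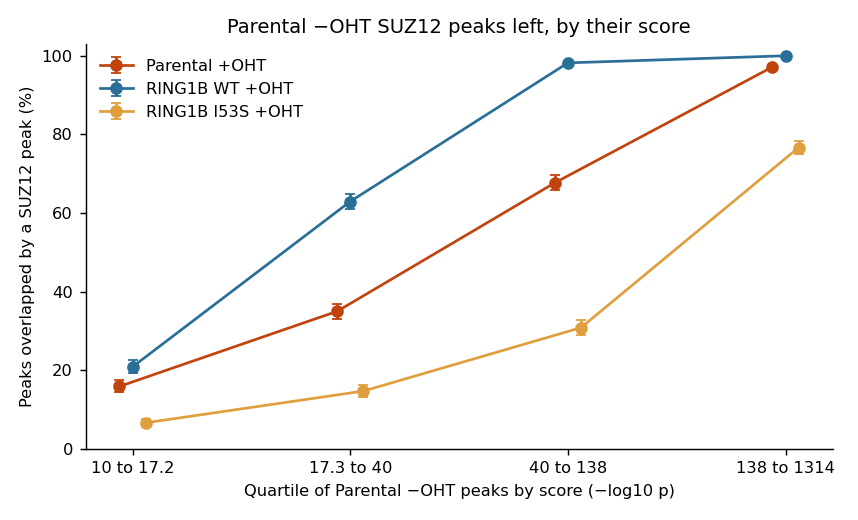
Share of Parental −OHT SUZ12 peaks overlapped by a SUZ12 peak of each +OHT library (%), by quartile of the Parental −OHT score (−log10 p). Error bars are 95% Wilson intervals over peaks. In the top quartile the shares are 100% in RING1B WT +OHT, 97.2% in Parental +OHT and 76.7% in RING1B I53S +OHT.

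Peaks that stayed were also lower in score and narrower. Of the 5026 Parental −OHT peaks overlapped in Parental +OHT, 92.8% had a lower score there, and the median fell from 118 to 24.1. Of the 6570 overlapped in RING1B WT +OHT, 94.5% had a lower score, with medians of 81.5 and 37.0. Of the 3000 overlapped in RING1B I53S +OHT, 96.5% had a lower score, with medians of 190 and 18.2. Scores were thus lower in all 3 +OHT lists, RING1B WT included. The order of scores was kept most closely in RING1B WT +OHT, with a Spearman correlation across shared peaks of 0.92 (n = 6570), against 0.71 in Parental +OHT (n = 5026) and 0.56 in RING1B I53S +OHT (n = 3000). Peaks are not independent replicates, and scores also rise with the depth of a library. A shared peak covered a median of 63.1% of the Parental −OHT peak in Parental +OHT, 80.1% in RING1B WT +OHT and 46.4% in RING1B I53S +OHT.

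Parental −OHT peaks fell into 2927 left in both Parental +OHT and RING1B I53S +OHT, 2099 left in Parental +OHT alone, 73 left in RING1B I53S +OHT alone and 4222 left in neither. Peaks left in both were wide and CpG-rich, with a median width of 2461 bp, a median score of 197 and a centre with at least 50% GC and a CpG ratio (observed to expected) of at least 0.6 in 75.6%. Peaks left in neither had a median width of 973 bp and a median score of 18.3, and 40.9% had such a centre. RING1B overlapped 79.9% of the peaks left in both and 21.9% of those left in neither, in Parental −OHT. For H3K27me3 these shares were 89.3% and 65.2%, for AEBP2 28.3% and 1.87%, and for MTF2 99.7% and 99.3%. For JARID2 they were 96.4% and 92.0%. Hence MTF2 and JARID2 peaks, unlike RING1B peaks, lay at nearly all peaks of both kinds. The MTF2 and JARID2 lists of Parental −OHT were also longer, with 24485 and 14778 peaks against 5073 for RING1B. Of the 4222 peaks left in neither, 42.7% were overlapped in RING1B WT +OHT and 167 had a score of at least 100. The 188 Parental −OHT peaks of chromosome X were left less often than the list as a whole, at 24.5% in Parental +OHT (18.9 to 31.1), 61.7% in RING1B WT +OHT (54.6 to 68.4) and 7.98% in RING1B I53S +OHT (4.89 to 12.7).

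Among the highest-scoring peaks left in neither list, 3 named after their values were seen lay at Ncs1, a neuronal calcium sensor (chr2:31242520-31247788, score 292), at Hoxc5 and Hoxc10, which pattern the body axis (chr15:102966464-102968931, score 232), and at the imprinted genes Peg10 and Sgce (chr6:4746590-4749032, score 202). All were still present in RING1B WT +OHT, with scores of 78.1, 135 and 78.1. Their scores already implied this, as all 2330 Parental −OHT peaks with scores above 138 were overlapped in RING1B WT +OHT. Of all 4222 peaks left in neither list, 42.7% were.

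Most SUZ12 peaks lay at promoters, and the share rose as the lists became shorter. Within 2.5 kb of an annotated start site lay 77.7% (76.9 to 78.6) of Parental −OHT peaks, 86.7% (85.8 to 87.5) of Parental +OHT peaks, 82.2% (81.3 to 83.1) of RING1B WT +OHT peaks and 87.3% (86.1 to 88.3) of RING1B I53S +OHT peaks, against 13.5% of genome windows. The median distance from the peak centre to the nearest start was 414, 341, 384 and 340 bp. CpG-rich centres made up 58.6% of Parental −OHT peaks, 79.0% of Parental +OHT, 65.2% of RING1B WT +OHT and 85.1% of RING1B I53S +OHT, against 0.672% of genome windows and 47.99% of the starts of protein-coding genes. The lists that lacked most peaks were thus the richest in CpG. Chromosome 11 held 11.7%, 12.8%, 12.4% and 15.5% of the 4 lists, at 89.2 peaks per 10 Mb in Parental −OHT. Chromosome 19 came next with 50.1. Values without chromosome 11 are given with the limits, as its part in the results was not tested otherwise.

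At gene level, 8456 genes had a SUZ12 peak at the promoter in Parental −OHT, 6016 in Parental +OHT, 6930 in RING1B WT +OHT and 3674 in RING1B I53S +OHT. Of these, 6261, 4599, 5194 and 2813 were protein-coding. Of the 8456 genes, 65.5% (64.5 to 66.5) kept a promoter peak in Parental +OHT, 78.9% (78.0 to 79.8) in RING1B WT +OHT and 41.1% (40.1 to 42.2) in RING1B I53S +OHT. With only peaks of a score of at least 20, 3548 genes had a promoter peak in Parental +OHT and 1669 in RING1B I53S +OHT. In all 4 lists 3340 genes had a promoter peak. Neither Parental +OHT nor RING1B I53S +OHT had one at 2844 of the Parental −OHT genes, and for 97 of these (3.41%) the Parental −OHT peak itself still held a peak, outside the promoter window.

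The widest SUZ12 domain lay over the Hoxb genes, which encode homeodomain factors of the anterior-posterior axis. In Parental −OHT a single peak of 63093 bp (chr11:96268032-96331124, score 969) ran over Hoxb3 to Hoxb9. The widest Hoxb peak was 7003 bp in Parental +OHT, 38731 bp in RING1B WT +OHT and 7687 bp in RING1B I53S +OHT. The cluster was covered over 118 kb in Parental −OHT, 51.9 kb in Parental +OHT, 111 kb in RING1B WT +OHT and 58.8 kb in RING1B I53S +OHT. The Hoxa cluster was covered over 87.4, 24.0, 73.8 and 22.8 kb in the same order, Hoxc over 64.4, 15.3, 61.9 and 11.9 kb, and Hoxd over 74.8, 24.3, 65.4 and 19.4 kb. The widest Hoxa peak was 27265, 3028, 15637 and 3101 bp, the widest Hoxc peak 13521, 2469, 13958 and 2453 bp, and the widest Hoxd peak 10503, 3891, 13618 and 3427 bp. In all 4 clusters the covered length was lower and the widest peak shorter in Parental +OHT and RING1B I53S +OHT than in the other 2 lists. The number of peaks did not move one way, with 9, 20, 15 and 25 peaks over Hoxb and 21, 11, 22 and 11 over Hoxc. Most genes nevertheless kept a peak at the promoter. All 11 Hoxa, 10 Hoxb, 9 Hoxc and 9 Hoxd genes had one in Parental −OHT and in RING1B WT +OHT, 10, 10, 6 and 9 in Parental +OHT, and 9, 10, 7 and 8 in RING1B I53S +OHT.

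**Figure D3:**
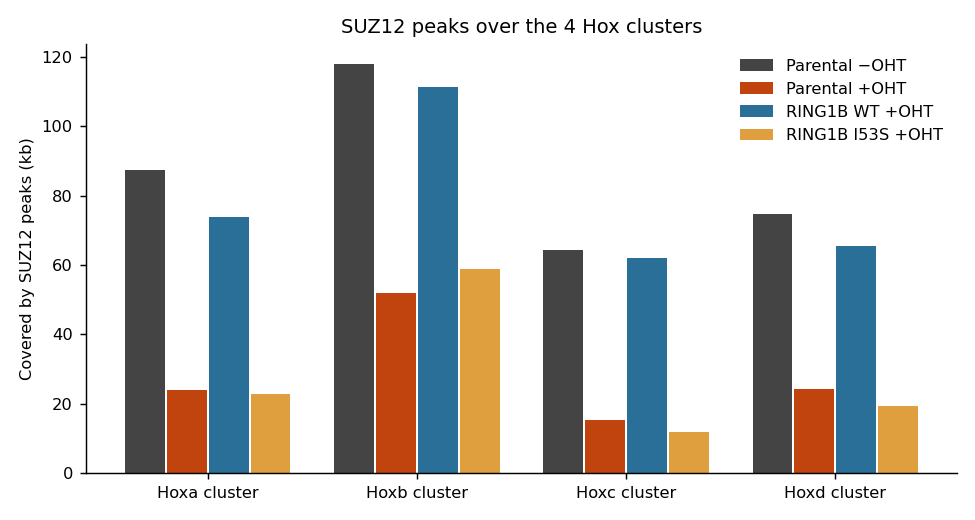
Length covered by SUZ12 peaks (kb) in the 4 Hox clusters. Each bar is 1 library. Coverage in Parental +OHT and RING1B I53S +OHT is below that of Parental −OHT and RING1B WT +OHT in every cluster, from 11.9 kb over Hoxc to 58.8 kb over Hoxb.

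The other broad domains narrowed in a like manner. Of the 1484 Parental −OHT peaks of at least 3 kb, 91.7% were overlapped in Parental +OHT, 99.4% in RING1B WT +OHT and 74.4% in RING1B I53S +OHT, but of their 7514 kb only 50.9%, 82.3% and 31.8% were covered. At Cbx8, a subunit of canonical PRC1, the peak was 27272 bp wide in Parental −OHT (chr11:119033446-119060717), 5646 bp in Parental +OHT, 26905 bp in RING1B WT +OHT and 4150 bp in RING1B I53S +OHT. At Pax2, a regulator of kidney and optic development, the widths were 23160, 7123, 10947 and 7231 bp (chr19:44739479-44762638 in Parental −OHT). At Lmx1b, a LIM homeodomain factor of limb and midbrain, they were 21507, 3089, 17816 and 2653 bp for the highest-scoring piece (chr2:33626328-33647834 in Parental −OHT). These 3 genes kept a peak in every list.

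The highest-scoring Parental −OHT peaks kept their place and lost height. At Sowaha the score was 1314 in Parental −OHT (chr11:53477281-53480873), 258 in Parental +OHT, 692 in RING1B WT +OHT and 92.2 in RING1B I53S +OHT. At Plxnd1, a semaphorin receptor, it was 1289, 204, 767 and 99.2 (chr6:115990608-115995368 in Parental −OHT). At Sost, an inhibitor of Wnt signalling, it was 1192, 105, 681 and 56.1 (chr11:101961590-101968212 in Parental −OHT). All 3 ranked in the same order over the lists. Neurod2, a neuronal helix-loop-helix factor, had scores of 1211, 471, 951 and 217 (chr11:98317168-98331106 in Parental −OHT). Among protein-coding genes with a promoter peak in all 4 lists, it had the highest RING1B I53S +OHT promoter peak. Next among them were Hoxb5 and Hoxb6, which share a peak of score 176. Tbx1, a T-box factor of the pharyngeal arches (162), and Nkx1-1, a homeodomain factor (149), followed. Presence in all 4 lists was a condition of this choice, and the Tbx1 sequence above comes from such a peak.

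The 5 highest-scoring Parental −OHT promoter peaks that had no promoter peak in Parental +OHT and RING1B I53S +OHT but 1 in RING1B WT +OHT turned out to be narrowed rather than absent. The genes are Btbd17, Gm30191, Ubd, Bub3 and Id2, and in each case a piece of the peak was left outside the 2.5 kb window. The Id2 peak, at an inhibitor of helix-loop-helix factors, was 7387 bp wide with a score of 377 in Parental −OHT (chr12:25094473-25101859). Within it 1469 bp were covered in Parental +OHT, 4636 bp in RING1B WT +OHT and 735 bp in RING1B I53S +OHT. The peak counted for Bub3, a mitotic checkpoint gene, lies over the neighbouring homeobox gene Hmx2 (chr7:131549576-131557766), where 6716, 8154 and 5208 of 8191 bp were covered.

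Peaks absent from Parental −OHT were few, short and low in score. They numbered 438 in Parental +OHT, with a median width of 606.5 bp, a median score of 12.9 and a highest score of 48.5. RING1B I53S +OHT held 190 of them (median score 12.7) and RING1B WT +OHT 316 (median score 11.9). At gene level, 533 genes had a promoter peak in Parental +OHT or RING1B I53S +OHT and none in Parental −OHT, and for 5 of them that peak overlapped a Parental −OHT peak just outside the promoter window. The 5 highest-scoring were Tbc1d17, a regulator of membrane traffic (52.4 in Parental +OHT), Ctu1, a tRNA-modifying enzyme (48.9), Trappc8, a subunit of a trafficking complex (48.5), Ankrd13c (33.9) and Zbtb7a, a zinc-finger repressor (33.4). The Tbc1d17 and Ctu1 peaks overlapped Parental −OHT peaks of score 31.4 and 46.7, whereas those of Trappc8, Ankrd13c and Zbtb7a overlapped none. Genes for PRC2 itself were among those with such a peak. Jarid2 (score 16.3) and Eed (11.3) had a promoter peak in Parental +OHT and in no other of the 4 lists. In Parental −OHT, RING1B overlapped 2.74% of the sites of the 438 peaks and MTF2 92.5%. For the Parental +OHT peaks on Parental −OHT peaks these shares were 73.3% and 99.8%.

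Other antibodies in the same line and treatment showed which partners lay under the SUZ12 peaks. H3K27me3 overlapped 75.5% (74.6 to 76.3) of SUZ12 peaks in Parental −OHT, 65.2% (64.0 to 66.5) in Parental +OHT, 77.6% (76.6 to 78.6) in RING1B WT +OHT and 55.9% (54.3 to 57.6) in RING1B I53S +OHT. With peaks of a score of at least 20 in every list, the shares were 58.9%, 52.6%, 68.9% and 52.4%. Of the PRC2.1 partners, MTF2 overlapped 99.5% of SUZ12 peaks in Parental −OHT and 87.8% in Parental +OHT, 95.4% and 90.3% in its 2 RING1B WT libraries, and 74.1% and 93.1% in its 2 RING1B I53S libraries. EPOP overlapped 73.0%, 42.1%, 86.7% and 63.9%. Of the PRC2.2 partners, JARID2 overlapped 93.6% in Parental −OHT and 22.4% in Parental +OHT, 75.5% and 75.03% in RING1B WT, and 28.4% and 11.4% in RING1B I53S. AEBP2 overlapped 11.4%, 0.0516%, 17.2% and 0.547%, but its lists held only 1331, 14, 1475 and 50 peaks, which limits these shares. The other lists differed in length too, which limits their shares as well. Those of JARID2 held 14778 and 1404 peaks in Parental −OHT and +OHT, 5728 and 5950 in RING1B WT, and 1080 and 446 in RING1B I53S. In the same order MTF2 had 24485, 7774, 8629 and 8335, and 3091 and 7546, and EPOP 8048, 2840, 7866 and 3095. The 2 MTF2 and the 2 JARID2 libraries of RING1B I53S differed by more than the counting intervals, so the shares of 1 library carry more error than those intervals. The JARID2 shares of RING1B I53S and Parental +OHT nevertheless lay below all those of RING1B WT and Parental −OHT.

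Peaks of RING1B, PCGF2 and CBX7 overlapped few of the SUZ12 peaks of Parental +OHT, and the other PRC1 subunits were not compared here. RING1B overlapped 49.0% of SUZ12 peaks in Parental −OHT, 0.706% in Parental +OHT, 46.3% in RING1B WT +OHT and 6.45% in RING1B I53S +OHT. PCGF2, a subunit of canonical PRC1, overlapped 52.99%, 0.516%, 50.6% and 15.9%. CBX7, its reader of H3K27me3, overlapped 54.5%, 0.740%, 35.5% and 0.604%. The PCGF2 lists held 5186, 89, 3773 and 696 peaks and the CBX7 lists 5140, 59, 2648 and 32, which limits these shares. H2AK119ub1 peaks were called over 57.2%, 56.2%, 72.9% and 46.4% of SUZ12 peaks, although the lists themselves held 12648, 5450, 15830 and 3120 peaks. A peak list says whether a site passed the threshold and not how strong it was, so these shares are no measure of the level of the mark. The 3941 RING1B peaks of RING1B WT +OHT held a SUZ12 peak at 90.0% in Parental −OHT, 79.1% in Parental +OHT, 89.0% in RING1B WT +OHT and 56.3% in RING1B I53S +OHT.

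**Figure D4:**
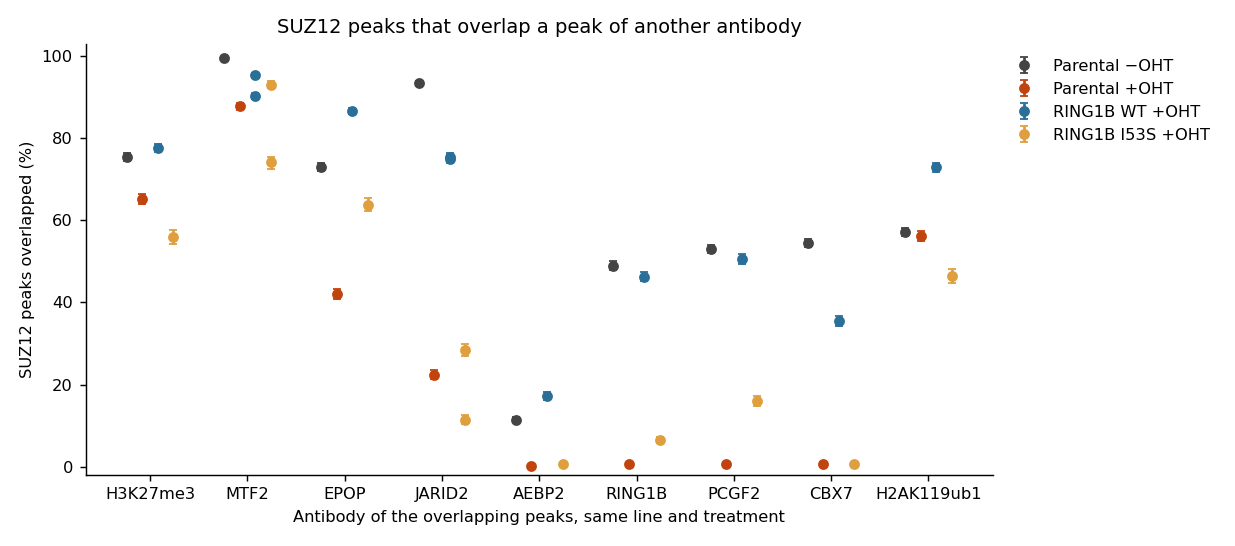
Share of SUZ12 peaks overlapped by a peak of another antibody in the same line and treatment (%). Each point is 1 library of that antibody, with its 95% Wilson interval over peaks. MTF2 stays between 74.1% and 99.5%, whereas JARID2, RING1B, PCGF2 and CBX7 are low in Parental +OHT and RING1B I53S +OHT.

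Sites without a SUZ12 peak in a +OHT list were less often overlapped by the other PRC2 peaks of the same group. Among Parental −OHT SUZ12 peaks, H3K27me3 overlapped 71.2% of those left in Parental +OHT and 16.6% of those not left, MTF2 90.1% and 29.0%, and EPOP 45.1% and 3.05%. In RING1B I53S +OHT, H3K27me3 overlapped 62.4% of those left and 12.1% of those not left, EPOP 65.7% and 8.88%, and MTF2 76.5% and 6.23% in 1 library and 94.3% and 40.2% in the other. In RING1B WT +OHT, H3K27me3 overlapped 80.6% of those left and 36.5% of those not left, EPOP 89.1% and 32.6%, and MTF2 97.4% and 42.9% in 1 library and 92.6% and 38.97% in the other. MTF2 was thus still called at a part of the sites that had no SUZ12 peak, and how large a part differed between the 2 libraries of RING1B I53S +OHT. The same sites already differed in part before OHT. In Parental −OHT, H3K27me3 overlapped 84.4% of the peaks left in Parental +OHT and 65.0% of those not left, EPOP 87.6% and 55.9%, and MTF2 99.8% and 99.3%.

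In lines without MTF2 the same comparison gave shorter lists, which are used here only to show where the lines with MTF2 differ. The 4 MTF2 KO lists held 11311 SUZ12 peaks, 4170 in Parental MTF2 KO −OHT, 1801 in Parental MTF2 KO +OHT, 4634 in RING1B WT MTF2 KO +OHT and 706 in RING1B I53S MTF2 KO +OHT. Of the 3941 RING1B peaks of RING1B WT +OHT, 62.4%, 12.7%, 65.7% and 2.66% held a SUZ12 peak in these lines, against 90.0%, 79.1%, 89.0% and 56.3% with MTF2. Each list is 1 library and the MTF2 KO lines are separate clones, so clone, library and loss of MTF2 cannot be told apart. The median score was 15.0 in Parental MTF2 KO −OHT, against 39.96 in Parental −OHT. Chromosome 11 held 24.2% to 67.2% of the MTF2 KO lists, and without it the shares were 65.9%, 7.89%, 68.6% and 1.24%, against 97.1%, 84.8%, 96.2% and 58.8%. The Hoxa, Hoxc and Hoxd clusters held no SUZ12 peak in Parental and RING1B I53S MTF2 KO cells with OHT, and between 9.87% and 23.9% of their length was covered in the corresponding lines with MTF2.

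RNA-seq of the same 3 lines, with 2 libraries each with and without OHT, was used to follow the genes under SUZ12 peaks. Rnf2, which encodes RING1B, stood at 200.2 and 257 CPM, the reads of a gene scaled to the size of the library, in Parental −OHT and at 144 and 168 in Parental +OHT, and gene-level counts also take in the transgene and transcripts from the deleted allele, so they do not check the deletion. The RING1B list itself fell from 5073 peaks in Parental −OHT to 690 in Parental +OHT. The 10 ESC markers were detected in every library, and their summed level was 3950 to 4539 CPM in Parental −OHT, 2176 to 2250 in Parental +OHT and 2429 to 2576 in RING1B I53S +OHT. Markers of primitive endoderm summed to 3.09 to 3.54, 48.7 to 50.8 and 38.6 to 38.7 CPM in these groups, trophoblast markers to 159 to 188, 375 to 378 and 272 to 318, and fibroblast markers to 11.9 to 14.2, 46.1 to 48.4 and 39.1 to 50.2. All 6 primitive endoderm markers were tested, and 6 rose in Parental, 6 in RING1B I53S and 0 in RING1B WT. Of the 5 trophoblast markers tested 4, 3 and 1 rose in this order, and of the 3 fibroblast markers tested 2, 1 and 0. Over all genes tested 15.1%, 12.8% and 1.34% rose. Of the 10 ESC markers, 1 rose and 3 fell in Parental, 1 fell in RING1B I53S and 0 were called in RING1B WT. In RING1B WT +OHT the ESC markers summed to 3837 to 3848 CPM and the primitive endoderm markers to 8.84 to 12.6. Of the fibroblast markers, Dcn was at 0 in Parental with and without OHT, whereas Col1a1 and Col1a2 rose there and Col1a2 in RING1B I53S. The part of other cell types in the results that follow was not tested, and in bulk RNA more cells of a type and more RNA per cell cannot be told apart.

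Genes with a SUZ12 promoter peak in Parental −OHT were weakly expressed there. Their median level was 0.311 CPM per kb over all 8456 genes, and 0.0612 for the 1886 genes with a promoter peak of at least 3 kb. It was 5.25 for the 12320 tested genes without such a peak. Genes of low count were left out of the 12320 but not of the 8456, so these medians are not over like sets. No count in Parental −OHT was found for 20.9% of the 8456 and 0.333% of the 12320. Of the 8456 genes, 5834 passed the filter on low counts, and a gene silent without OHT passed it only through the libraries where it was high, so the counts that follow describe the genes tested and not all members. With OHT, 2069 of the 5834 rose and 47 fell in Parental (35.5% and 0.806%), where 15.1% of all 18154 genes tested rose and 1.83% fell. A call in edgeR needed an FDR under 0.05 and a log2 fold change of 1.5 or more in size, and in either direction it was made at 17% of all genes tested in Parental, 1.38% in RING1B WT and 13.8% in RING1B I53S. In RING1B I53S 1846 rose and 19 fell (31.6% and 0.326%), against 12.8% and 1.04% of all genes tested. In RING1B WT 185 rose and 3 fell (3.17% and 0.0514%), against 1.34% and 0.0386%. Without 1 of the WT libraries (−OHT replicate 2 or +OHT replicate 2) the count of risen genes in RING1B WT was 16 or 25. The median log2 fold change was 0.93 in Parental, 0.32 in RING1B WT and 0.86 in RING1B I53S, against 0.03, 0.02 and 0.01 over all genes tested.

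Among the genes tested, those under broad peaks were called most often. A promoter peak of at least 3 kb lay at 1886 genes, of which 1214 were tested and 781 rose in Parental. Narrower peaks lay at 6570, of which 4620 were tested and 1288 rose. Genes of the first kind were lower in Parental −OHT (median 0.0612 against 0.533 CPM per kb). A silent gene was tested only where other libraries held it high, so the shares below do not describe all members. With a promoter peak of at least 3 kb in Parental −OHT, 64.3% (61.6 to 67.0) of the 1214 genes tested rose in Parental, 5.19% in RING1B WT and 59.9% in RING1B I53S. With narrower peaks these shares were 27.9% (26.6 to 29.2), 2.64% and 24.2% of 4620. Of the genes that kept a promoter peak in both Parental +OHT and RING1B I53S +OHT, 43.3% (41.3 to 45.3) rose in Parental and 40.7% (38.8 to 42.7) in RING1B I53S, so a SUZ12 peak was still called at the promoter of many genes that rose. Of those that kept it in neither, 28.5% (26.5 to 30.6) and 24.1% (22.3 to 26.1) rose. Genes that share a domain, such as the Hox genes, are not independent. Of the 533 genes with a promoter peak in Parental +OHT or RING1B I53S +OHT and none in Parental −OHT, 443 were tested. Akap5, Ccr7 and Fam83c rose in Parental and 10 fell (0.677% and 2.26%), against 15.1% and 1.83% of all genes tested. In RING1B WT 0 rose and Tbcc fell (0.226%, against 0.0386%). Ccr7 and Dusp13 rose in RING1B I53S and 4 fell (0.451% and 0.903%), against 12.8% and 1.04%. The fallen shares in Parental and RING1B I53S were thus near those over all genes tested. These genes were named after their values were seen.

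**Figure D5:**
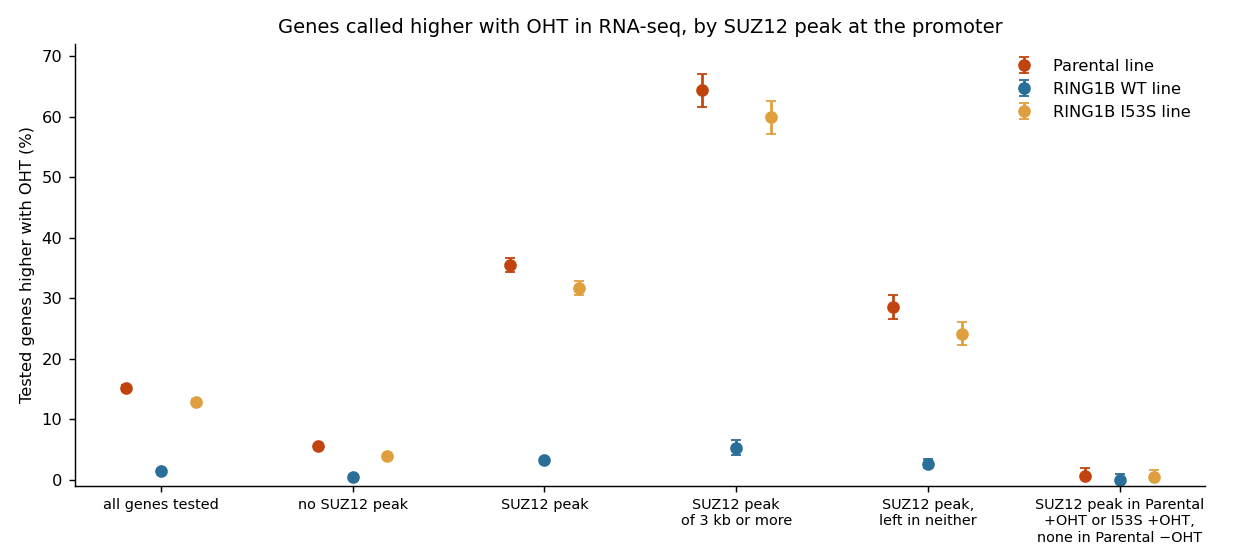
Share of tested genes that were called higher with OHT (%) in each line, by the SUZ12 peak at their promoter in Parental −OHT. Error bars are 95% Wilson intervals over genes. With a peak of at least 3 kb the share is 64.3% in Parental, 59.9% in RING1B I53S and 5.19% in RING1B WT.

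The effect of OHT at these 5834 genes was also compared between lines within the same edgeR fit. It was higher in Parental than in RING1B WT at 187 genes and lower at 9, against 1.10% and 0.435% of all genes tested. It was higher in RING1B I53S than in RING1B WT at 38 genes and lower at 2, against 0.209% and 0.138%. Between RING1B I53S and Parental edgeR called 0 genes in either direction, with 71 higher and 184 lower at an unadjusted p under 0.05, and 0 under each setting tried. Which WT library entered mattered here too: without RING1B WT +OHT replicate 1 the first pair of lines differed upward at 39 genes and the second at 2.

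Families of developmental regulators differed in how many of their tested genes rose with OHT, where 15.1%, 1.34% and 12.8% of all genes tested rose in Parental, RING1B WT and RING1B I53S. A gene silent without OHT was tested only where other libraries held it high, so these counts do not describe all members. The T-box, Nkx, Fox, Fgf, Irx and Bmp lists hold 16, 14, 44, 22, 6 and 11 members, and the Sox and Pax lists 11 and 9. Of the 11 Hoxa, 10 Hoxb, 9 Hoxc and 9 Hoxd genes, 29 were tested. Among these 29, 26 rose in Parental, 5 in RING1B WT and 25 in RING1B I53S. Of 9 Dlx and Msx factors, all with a SUZ12 promoter peak in each of the 4 lists, 9, 2 and 9 rose. Of 19 Wnt ligands, 19, 18, 18 and 16 had a SUZ12 promoter peak in Parental −OHT, Parental +OHT, RING1B WT +OHT and RING1B I53S +OHT, and 16, 2 and 16 rose. Of 10 LIM homeobox factors 9, 0 and 9 rose, and of 6 Gata factors 6, 1 and 5. Of 10 Sox factors 8, 0 and 8 rose, of 12 T-box factors 9, 1 and 9, and of 8 Pax factors 7, 1 and 6. A smaller share of the tested members was called in the Nkx, Fox and Fgf families. Of 9 Nkx factors 4, 1 and 5 rose, and of 35 Fox factors 16, 1 and 14 rose while 1 fell in Parental and 2 in RING1B I53S. Of 14 Fgf ligands 5, 0 and 6 rose and 2 fell in Parental. Of 4 Irx factors 4, 0 and 4 rose, and of 8 Bmp ligands 6, 1 and 6. Germline genes, which are silenced in mESCs by other PRC1 forms as well, had a SUZ12 promoter peak at 5, 1, 1 and 0 of 12 in the order of the lists above, and 10, 6 and 8 of 12 rose. None of 79 ribosomal protein genes was called in any line. These lists were chosen with earlier results of these data known.

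Gata3, a zinc-finger factor of several lineages, lay under 2 SUZ12 peaks in Parental −OHT. It stood at 0.4935 and 0.4945 CPM in Parental −OHT and at 52.96 and 52.1 in Parental +OHT, a log2 fold change of 6.70 (SE 0.36, edgeR FDR 7.02e-10). In RING1B WT it stood at 1.585 and 1.21 without OHT and at 4.86 and 7.46 with it (log2 fold change 2.13). In RING1B I53S it stood at 0.924 and 0.675 without OHT and at 35.1 and 37.0 with it (log2 fold change 5.46). The groups with and without OHT do not overlap in any line, and RING1B WT +OHT stayed below the other 2 +OHT groups. Ccnd2, a D-type cyclin, rose from 2.47 and 4.33 CPM to 195 and 167 in Parental (log2 fold change 5.78), with 2.23 in RING1B WT and 4.99 in RING1B I53S. Id2, whose peak narrowed, rose by a log2 fold change of 4.22 in Parental, 2.37 in RING1B WT and 3.84 in RING1B I53S. Esx1, an X-linked homeobox gene, lost its promoter peak in Parental +OHT and RING1B I53S +OHT and rose by 4.75, 1.67 and 4.12 on the log2 scale.

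Other named genes covered the range from large changes to none. Gata6, a regulator of primitive endoderm, had no count in Parental −OHT and was at least 35.8-fold higher with OHT. Hoxb1 was at least 32.7-fold higher in Parental and at least 13.3-fold higher in RING1B I53S. Bmp4, a signalling ligand, kept its promoter peak in all but RING1B I53S +OHT and was not called in any line, with log2 fold changes of 0.05, −0.52 and 0.35. Cdkn2a, a cell cycle inhibitor, was not called either (−0.38, −0.79 and −0.42). Neurod2, whose peak was among the highest in every list, did not pass the count filter and stayed at or under 0.289 CPM in all 12 libraries. Genes for PRC2 core subunits without a promoter peak in Parental −OHT were not called, Suz12 with log2 fold changes of −0.38, 0.15 and 0.07 and Ezh2 with −0.43, −0.06 and −0.19. Eed, another core subunit, went from 239.8 and 284.1 CPM to 144.0 and 126.8 in Parental (log2 fold change −0.95, edgeR FDR 0.00128), with −0.33 (FDR 0.452) in RING1B WT and −0.80 (FDR 0.00618) in RING1B I53S, and in Parental and RING1B I53S it missed the call only by the size of the change.

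Among the genes with SUZ12 peaks that fell with the lowest adjusted p in RING1B I53S were Etv5, an ETS factor downstream of FGF signalling, and Mitf, a helix-loop-helix factor. Etv5 fell by 2.28 on the log2 scale in Parental and by 1.54 in RING1B I53S, and its value of −0.29 in RING1B WT was not called. Its promoter peak had scores of 75.3, 10.2, 24.0 and 11.4 in the 4 lists. Mitf fell by 2.28 in Parental and by 1.81 in RING1B I53S, and its value of −0.31 in RING1B WT was not called.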

How the data were processed

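SUZ12 and other peak lists, and gene counts, of mouse embryonic stem cells were used as the authors deposited them. For ChIP-seq the authors aligned reads to mm10 with Bowtie 1.2.2 and called peaks in each library against an input with MACS2 2.1.1. The score of each deposited peak is its −log10 p-value, with a minimum of 10 in the lists. The RNA-seq values are raw counts per gene, which the authors deposited after alignment with STAR 2.7 and counting with featureCounts. The labels give 72 h of OHT, and the methods of the study 48 or 72 h.

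Peaks were compared by an overlap of at least 1 bp. A promoter was 2.5 kb to either side of a GENCODE M21 start site. A peak was CpG-rich with at least 50% GC and an observed to expected CpG of at least 0.6 in its central 500 bp. Sequences came from RefSeq's GRCm38 genome. Counts of 12 libraries (8140106 to 12743460 counted reads) were tested with edgeR 4.0.16 (quasi-likelihood, TMM, filterByExpr), which left 18154 of 55341 genes, in R 4.3.3, and DESeq2 1.42.0 was an alternative. Nothing says that replicates are separate cultures, so p-values measure the spread between these samples. The fit was tested on simulated data for Parental +OHT against −OHT with 18154 genes, where 98% of 50 genes changed by a log2 fold of 2 were called and 8% at a log2 fold of 1. Overlaps were tested on 1000 simulated regions. Python 3.11.15 was used otherwise.

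The members, gene lists and rules were chosen with earlier results of these data known. Named genes were a fixed list of developmental, Polycomb and control genes, the genes at the 5 widest and 5 highest-scoring Parental −OHT peaks, the 5 with the highest-scoring peak lost in Parental +OHT and RING1B I53S +OHT but not in RING1B WT +OHT, the 5 highest in RING1B I53S +OHT, the 5 highest without a Parental −OHT promoter peak, and, of the genes called in RING1B I53S, the 3 risen and the 3 fallen ones of lowest adjusted p. Some genes and family lists that these rules name are not reported here.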

Additional observations from a re-analysis of the deposited data

Results flagged for a closer look

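The effect of OHT on RNA differed between lines at genes with a SUZ12 promoter peak in Parental −OHT, by edgeR's test of the difference itself. It was higher in Parental than in RING1B WT at 187 of 5834 genes and lower at 9. It was higher in RING1B I53S than in RING1B WT at 38 genes and lower at 2. Without RING1B WT +OHT replicate 1 the 2 upward counts were 39 and 2. The first was also 63, 73, 78 and 91 without Parental +OHT replicate 2, Parental +OHT replicate 1, RING1B WT −OHT replicate 1 and Parental −OHT replicate 2, and the second 7 and 17 without RING1B WT −OHT replicate 1 and RING1B I53S −OHT replicate 2.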

How the results depend on the processing

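With a score of at least 20 in every list, Parental +OHT, RING1B WT +OHT and RING1B I53S +OHT held 3216, 4730 and 1460 peaks, the shares of Parental −OHT peaks overlapped in Parental +OHT and RING1B I53S +OHT were 45.3% and 20.4%, promoter genes of these 2 lists numbered 3548 and 1669, and H3K27me3 overlapped 58.9%, 52.6%, 68.9% and 52.4% of SUZ12 peaks in Parental −OHT, Parental +OHT, RING1B WT +OHT and RING1B I53S +OHT. With at least 50% of the peak covered, the overlapped shares were 37.6%, 64.2% and 14.2%, and those of H3K27me3 68.4%, 57.8%, 71.0% and 47.8%. With the 3475 highest-scoring peaks of each list the overlapped shares were 73.8%, 89.0% and 63.7%, and promoter genes 3904, 3816 and 3806 in Parental −OHT, Parental +OHT and RING1B WT +OHT. Without chromosome 11, a choice made after seeing the data, the share in RING1B I53S +OHT was 31.1%. Without a filter on low counts 341 genes rose in RING1B WT. Leaving out 1 library at a time gave 1689 to 1891 risen genes in Parental, 16 to 195 in RING1B WT and 1292 to 1823 in RING1B I53S. For the differences between lines, alternatives added after seeing the data gave 39 to 181 genes higher in Parental than in RING1B WT with 1 library left out and 363 without the filter, and 2 to 46 and 156 genes higher in RING1B I53S than in RING1B WT. Replicate numbers did not pair the samples (correlations of deviations 0.10, 0.06 and 0.20 within lines). With the replicate block 2127, 207 and 1893 genes rose, and the differences between lines numbered 252 and 63. Some orders between lists changed under the alternatives. With the 3475 highest-scoring peaks, promoter genes were 3816 in Parental +OHT and 3806 in RING1B WT +OHT, against 6016 and 6930 with full lists. With a score of at least 20, H2AK119ub1 overlapped 32.7% of SUZ12 peaks in Parental −OHT and 39.0% in Parental +OHT. With full lists these shares were 57.2% and 56.2%. Of the calls of named genes, 400 stayed on their side of the threshold and 16 were lost, each with 1 library left out. With 1 SUZ12 library per condition, differences between lists have no replicate check, and lists do not give the depth of a library or the level at a site. The causes of these changes were not tested.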
